A study of Mus musculus with 12 samples.

Results

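The genes described here are 42 interferon-stimulated genes of mouse LSKs, the Lin- Sca-1+ c-Kit+ bone marrow cells that hold the hematopoietic stem cells and the multipotent progenitors. They were taken by gene name from the expression table, which lists 53465 genes, and all 42 were present once. RNA-seq was compared in 4 groups of 3 libraries. LSKs came from untreated Tespa1+/+ littermates, from untreated Tespa1-/- mice, and from mice of each genotype at day 9 after a single injection of 5-fluorouracil (5-FU), a drug that kills dividing blood cells. The former genotype is called wild-type and the latter knockout below. The Tespa1-/- mice carry a germline null allele backcrossed to C57BL/6, which is not restricted to blood cells, and the mice were young adult males except where the study used middle-aged animals. The labels give no age. Bone marrow was depleted of cells with lineage antigens before the LSKs were sorted by flow cytometry. Sca-1, encoded by Ly6a, is itself interferon-inducible and was one of the gates of the sort.

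Interferons are cytokines that most cells can sense. Type I interferons bind the receptor IFNAR, whose kinases JAK1 and TYK2 lead to the assembly of the factor ISGF3, which contains STAT2 and IRF9. ISGF3 binds the interferon-stimulated response element (ISRE) in the promoters of many target genes, while interferon-gamma acts mainly at the gamma-activated site (GAS). In bone marrow, interferon signalling is known to drive quiescent stem cells into the cell cycle, and stem cells keep a basal level of many interferon-stimulated genes.

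Total counts ran from 22118154 to 28275079 per library, and the detection limit of 3 counts equalled 0.106 to 0.136 CPM (read counts scaled to library size), which covers counting error only. The least abundant value of a member in a library rested on 246 counts. Tespa1 was at 49.8, 43 and 46.6 CPM in untreated wild-type LSKs, 34.5, 34.9 and 34.8 CPM in untreated knockout LSKs, 47.2, 55 and 57.5 CPM in wild-type LSKs after 5-FU and 20.8, 19.8 and 17.3 CPM in knockout LSKs after 5-FU. The knockout libraries lay below those of the other genotype in each treatment, but reads on the gene were still present, and a total per gene cannot tell the exons apart. Kit, which encodes the c-Kit of the sort, was at 411, 431 and 387 CPM in untreated wild-type LSKs, 359, 367 and 354 CPM in untreated knockout LSKs, 474, 459.8 and 469 CPM in wild-type LSKs after 5-FU and 349, 329 and 349 CPM in knockout LSKs after 5-FU. The genotypes did not overlap in either treatment. Neutrophil markers, a list of 12, summed to 0.770 to 1.96, 4.83 to 5.93 and 3.66 to 9.01 CPM in untreated wild-type LSKs, untreated knockout LSKs and wild-type LSKs after 5-FU, with 4 of the 12 at or under 3 counts in every library of each of these groups. In knockout LSKs after 5-FU the same list summed to 1080 to 1090 CPM in all 3 libraries, and none of the 12 was at or under 3 counts in all 3.

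Of the 42 members, 31 had a promoter window in the RefSeq table used (build GRCm38.p6), which holds 250 bases before and 50 bases after a start site. The members without an entry were Iigp1, Parp14, Oas2, Rtp4, Dhx58, Mx1, Ly6e, Parp9, Zbp1, Usp18 and Mx2. The ISRE core, a pair of GAAA sites with 2 bases of any kind between them (GAAANNGAAA), and the GAS core (TTCNNNGAA) were searched on both strands. The ISRE core stood in the windows of 18 of the 31 members (58.1%), against 1079 of all 27025 genes with a window (3.99%). The GAS core stood in those of 9 members (29.0%), against 9.55% of all genes. Of the 28 ISRE cores in member windows, 20 began within the 150 bases before the start site, 11 overlapped another ISRE core and 2 overlapped a GAS core. These shares describe letters in the windows and were not tested.

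One promoter is shown for each role group that has a member with an ISRE core, the member with the largest genotype difference after 5-FU, to show where the interferon-response letters lie in the genes described below. Sequences are from RefSeq (GRCm38.p6), 5′ to 3′ on the strand of the gene, and capitals mark the ISRE cores.
Ifit3, chr19:34583279-34583578, plus strand: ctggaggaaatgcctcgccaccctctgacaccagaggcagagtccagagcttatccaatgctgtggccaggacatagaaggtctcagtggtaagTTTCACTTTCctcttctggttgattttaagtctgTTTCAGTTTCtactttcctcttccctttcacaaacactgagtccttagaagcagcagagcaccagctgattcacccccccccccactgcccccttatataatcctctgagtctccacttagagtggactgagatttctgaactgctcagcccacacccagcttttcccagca
Rsad2, chr12:26456403-26456702, minus strand: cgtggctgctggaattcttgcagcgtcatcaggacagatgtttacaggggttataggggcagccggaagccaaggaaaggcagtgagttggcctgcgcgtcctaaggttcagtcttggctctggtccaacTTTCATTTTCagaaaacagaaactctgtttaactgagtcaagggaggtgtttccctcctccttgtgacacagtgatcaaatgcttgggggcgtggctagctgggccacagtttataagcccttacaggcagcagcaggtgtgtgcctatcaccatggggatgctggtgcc
Oas3, chr5:120777610-120777909, minus strand: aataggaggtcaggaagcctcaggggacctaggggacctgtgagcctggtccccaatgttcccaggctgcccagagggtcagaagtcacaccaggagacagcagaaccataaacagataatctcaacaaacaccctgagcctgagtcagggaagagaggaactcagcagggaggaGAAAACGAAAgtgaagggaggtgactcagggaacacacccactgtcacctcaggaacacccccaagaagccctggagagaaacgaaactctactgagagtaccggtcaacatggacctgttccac
Ddx58, chr4:40239776-40240075, minus strand: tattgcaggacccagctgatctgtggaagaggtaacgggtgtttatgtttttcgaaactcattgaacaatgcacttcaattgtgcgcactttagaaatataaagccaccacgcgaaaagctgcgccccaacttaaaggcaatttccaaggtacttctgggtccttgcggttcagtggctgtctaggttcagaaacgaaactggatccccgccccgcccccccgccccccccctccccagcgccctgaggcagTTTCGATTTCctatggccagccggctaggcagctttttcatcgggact
Irgm1, chr11:48871371-48871670, minus strand: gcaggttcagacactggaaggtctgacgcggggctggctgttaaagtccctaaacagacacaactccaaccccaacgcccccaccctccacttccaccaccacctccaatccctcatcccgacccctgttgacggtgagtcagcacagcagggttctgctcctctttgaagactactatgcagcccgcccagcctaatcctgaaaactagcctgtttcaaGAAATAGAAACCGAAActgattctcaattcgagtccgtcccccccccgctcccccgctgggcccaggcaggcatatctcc
Trim30a, chr7:104465144-104465443, minus strand: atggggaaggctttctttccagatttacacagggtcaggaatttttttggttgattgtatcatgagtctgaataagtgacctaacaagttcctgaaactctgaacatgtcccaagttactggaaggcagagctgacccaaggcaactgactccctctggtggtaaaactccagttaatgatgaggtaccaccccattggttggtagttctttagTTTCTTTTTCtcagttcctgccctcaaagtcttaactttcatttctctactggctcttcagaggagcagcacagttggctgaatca
Isg15, chr4:156200769-156201068, minus strand: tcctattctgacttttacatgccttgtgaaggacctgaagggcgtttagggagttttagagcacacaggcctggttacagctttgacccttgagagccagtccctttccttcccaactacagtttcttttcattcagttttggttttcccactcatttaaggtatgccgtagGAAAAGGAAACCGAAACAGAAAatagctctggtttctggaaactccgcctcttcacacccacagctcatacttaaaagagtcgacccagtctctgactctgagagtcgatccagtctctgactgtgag
Stat2, chr10:128270248-128270547, plus strand: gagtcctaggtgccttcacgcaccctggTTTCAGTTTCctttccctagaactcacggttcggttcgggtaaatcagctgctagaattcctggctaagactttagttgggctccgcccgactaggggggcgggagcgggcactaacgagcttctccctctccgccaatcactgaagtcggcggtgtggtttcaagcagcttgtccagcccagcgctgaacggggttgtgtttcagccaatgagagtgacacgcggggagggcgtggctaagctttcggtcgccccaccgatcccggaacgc
Cores on the opposite strand start with TTTC. Isg15 held a run of 3 ISRE cores that overlap each other, with first bases at -78, -72 and -66 relative to the start site. Irgm1 held a pair that overlap, and Ifit3 a pair that do not. The core of Ddx58 began 2 bases after the start site, and that of Stat2 at -222. Irf1, which encodes a factor induced mainly by interferon-gamma, had a GAS core and no ISRE core in its window, as did Ifit2 and Ifi35.

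**Figure D1:**
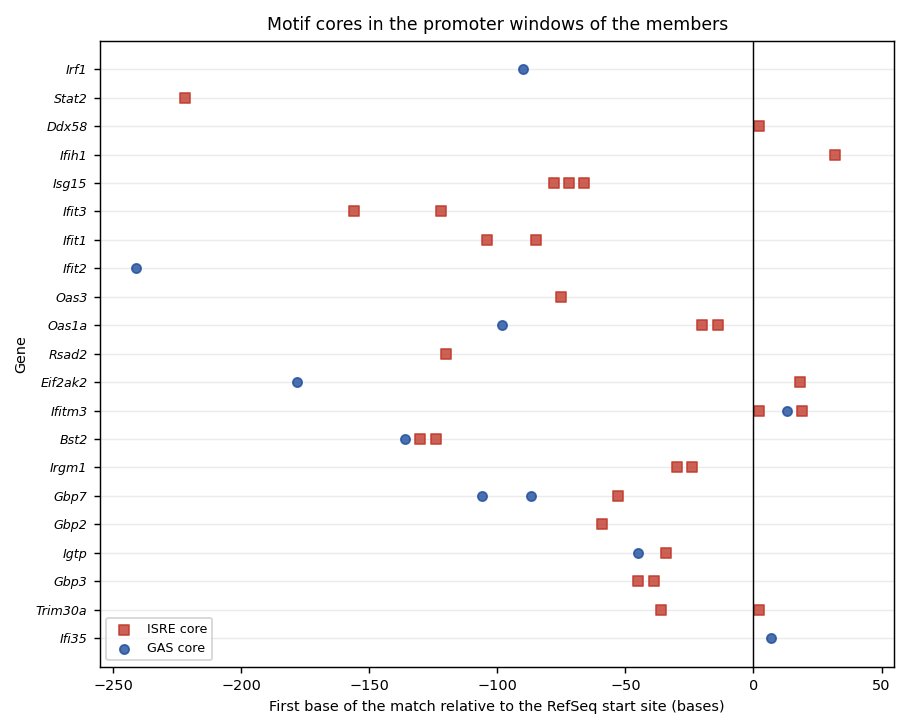
Positions of ISRE cores (squares) and GAS cores (circles) in the promoter windows of the members that hold at least one; the x axis gives the first base of each match relative to the RefSeq start site. The 2 matches of Trim30a come from 2 windows, and 20 of the 28 ISRE cores lie within the 150 bases before the start site.

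All 42 members were expressed, with a mean of at least 1 FPKM over the 12 libraries. Levels are compared between genes by the authors' FPKM, which is per length, and between libraries by CPM. In untreated wild-type LSKs Ifitm3, a membrane protein that blocks virus entry, was the most abundant at 209 ± 28 FPKM (SD, n = 3). Bst2 at 33.4 ± 3.31 and Dtx3l at 32.3 ± 0.502 FPKM followed and did not differ beyond the spread of Bst2, nor did Trim30a at 28.5 ± 1.44 and Oas1a at 27.3 ± 2.69 FPKM, which came next. Rsad2 at 4.19 ± 0.513, Mx2 at 4.36 ± 0.375 and Rtp4 at 4.44 ± 1.0 FPKM were the lowest and did not differ beyond their spread. The level of the genes together was even among libraries of a group. The 42 summed to 3199, 3095 and 3270 CPM in untreated wild-type LSKs and 2813, 2875 and 2810 CPM in untreated knockout LSKs. After 5-FU they summed to 4287, 4268 and 4294 CPM in wild-type LSKs and 2448, 2410 and 2423 CPM in knockout LSKs. The genotypes stood furthest apart after 5-FU, where wild-type LSKs was the highest and knockout LSKs the lowest of the 4 groups. For single members, the mean of wild-type LSKs after 5-FU was the highest of the 4 groups in 37 of 42, and the mean of knockout LSKs after 5-FU the lowest in 31 of 42. Fewer cells of a type with these transcripts and less RNA per cell cannot be told apart in bulk libraries.

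**Figure D2:**
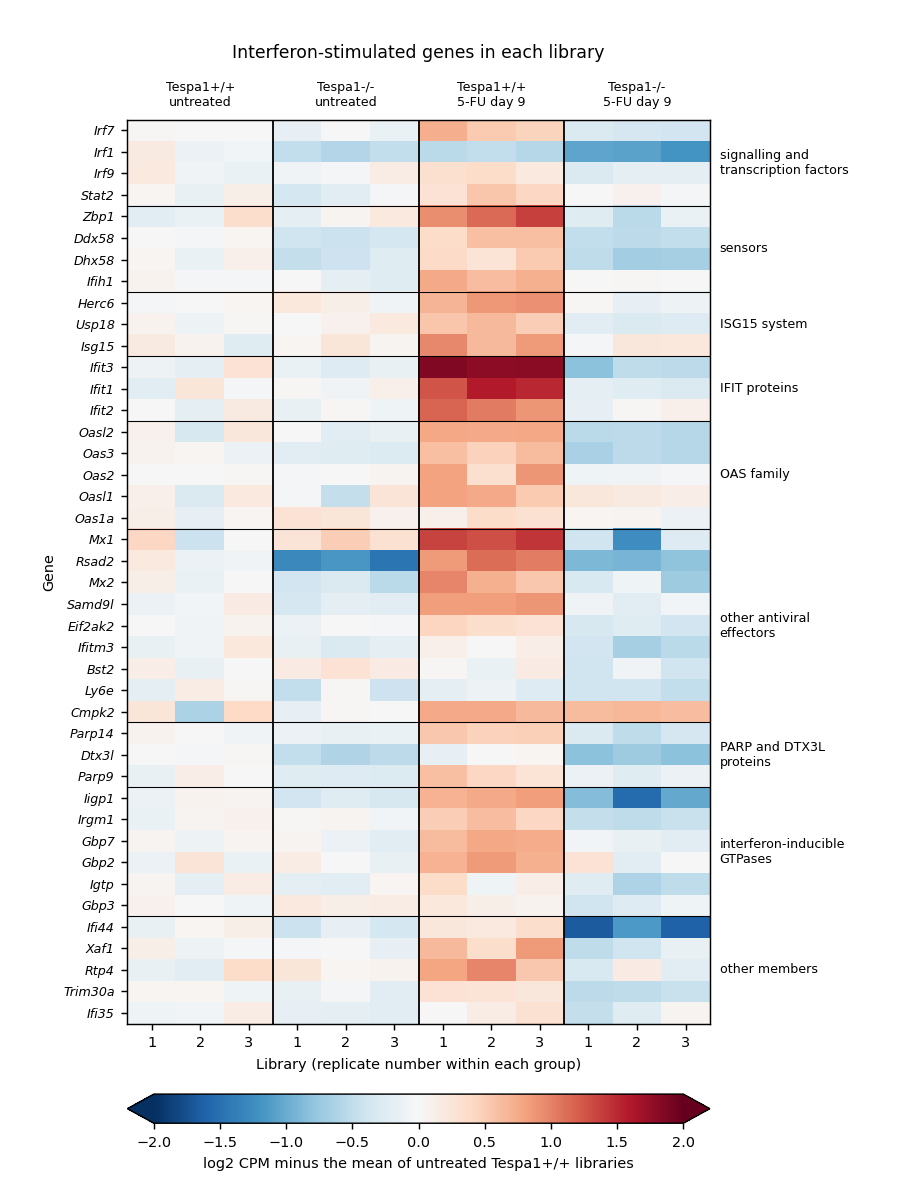
Heat map of the 42 members (rows, grouped by role) in the 12 libraries (columns, grouped by genotype and treatment); colour gives log2 CPM minus the mean of the untreated Tespa1+/+ libraries. The libraries of Tespa1+/+ after 5-FU are red in most rows, with Ifit3 the darkest, and those of Tespa1-/- after 5-FU are pale or blue in nearly all rows, Cmpk2 being the clearest exception.

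Whether the genotypes differed in these genes was tested in each treatment with edgeR's quasi-likelihood test over all genes, with Benjamini-Hochberg adjustment and a threshold of 0.05. The 42 members were chosen with earlier results of these data known. The shares of members called, here and below, are therefore set beside those of all genes as a description. Genotype differences are log2 fold changes of knockout over wild-type LSKs and responses are log2 fold changes of treated over untreated LSKs, so a negative value is a lower level in the first. In untreated LSKs 4 of the 42 members were lower in knockout LSKs (Irf1, Ddx58, Rsad2 and Dtx3l) and 0 were higher, where 3.59% of the 17055 genes tested were lower and 1.64% higher. Over the members the median log2 fold change came to -0.12, and over all genes to 0.01. Without replicate 2 of untreated knockout LSKs the count was 2. DESeq2, another test for counts, called more members, and a fold change above 1.5 required as well left fewer, as given below. Of a list of 12 handling and early-response genes, which can change as cells are prepared, 10 were lower and 1 was higher in the same comparison, and all 12 fell after 5-FU in each genotype. Their part in the results for the members was not tested. At day 9 after 5-FU, 38 of the 42 members were lower in knockout LSKs and 0 were higher, where 5.78% of the 17239 genes tested were lower and 7.34% higher. The median of the members was -0.84, against -0.01 over all genes, and 13 members were lower by at least 1 on the log2 scale. All 42 fold changes were below 0, and the 4 that did not pass were Oas1a, Cmpk2, Bst2 and Ifi35.

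**Figure D3:**
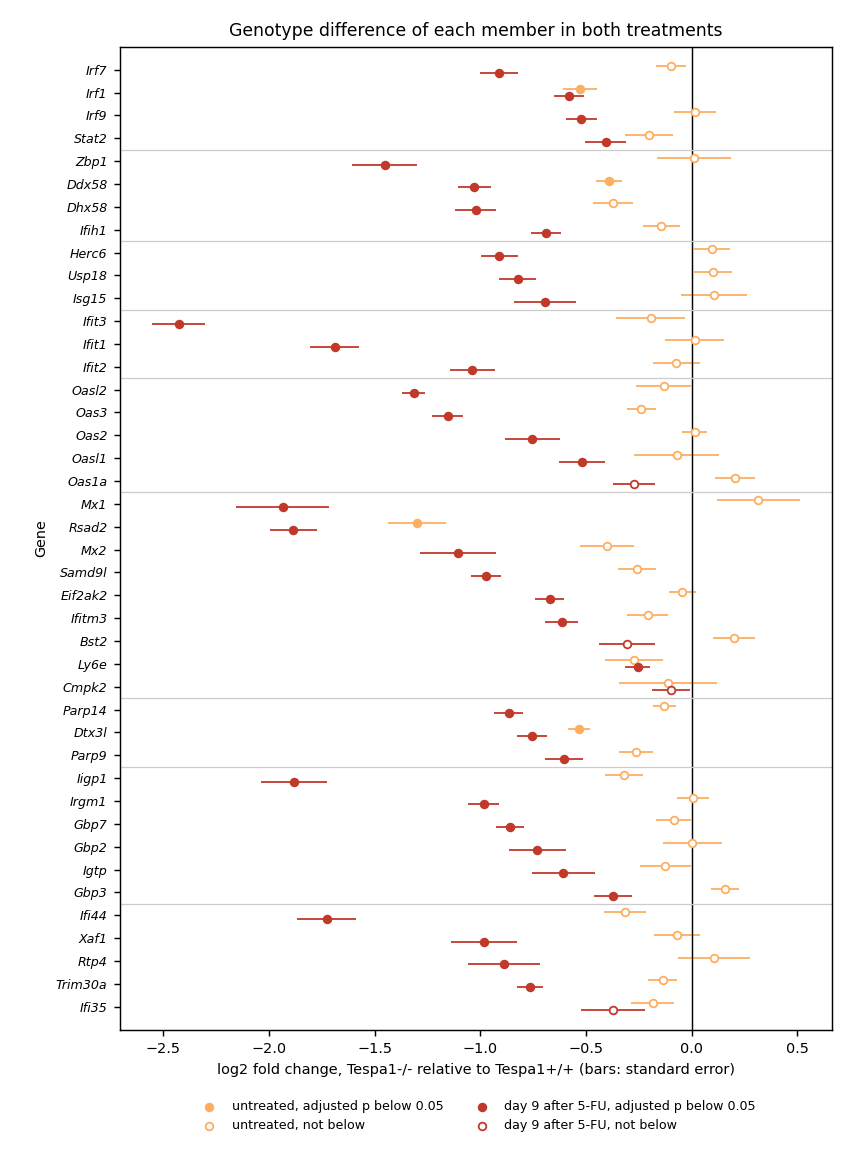
Log2 fold change of each member in Tespa1-/- relative to Tespa1+/+ LSKs, untreated (orange) and at day 9 after 5-FU (red), with standard errors from edgeR; filled points have an adjusted p below 0.05. Open orange points gather around 0, while 38 of the 42 red points are filled and lie from -0.26 for Ly6e to -2.43 for Ifit3.

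How each genotype responded to 5-FU was compared with its own untreated group. In wild-type LSKs 30 of the 42 members were higher after 5-FU and 1, Irf1, was lower, where 3.77% of the 17002 genes tested were higher and 4.18% lower. Over the members the median log2 fold change came to 0.57, over all genes to 0.01, and Ifit3, Ifit1, Mx1, Zbp1 and Ifit2 rose by at least 1 on this scale. Without replicate 1 of wild-type LSKs after 5-FU the count of members that rose was 19. In the same comparison 6 of 6 B cell markers rose, from a sum of 47.7 to 59.4 CPM to one of 174 to 190.0 CPM, as did 3 of 4 megakaryocyte markers tested, from 32.4 to 37.2 CPM to 108 to 123 CPM. The part of these markers in the rise was not tested. In knockout LSKs 1 member, Cmpk2, was higher after 5-FU and 17 were lower, where 10.7% of the 17228 genes tested were higher and 8.64% lower. Their median was -0.25, against -0.01 over all genes, and the count of lower members was 11 without replicate 2, and 11 without replicate 3, of untreated knockout LSKs. The B cell markers (6 of 6 higher) and the megakaryocyte markers (4 of 4 tested higher) rose in knockout LSKs too, from 31.9 to 37.1 CPM to 218 to 229 CPM and from 61.1 to 63.5 CPM to 164 to 170.0 CPM, as did all 12 neutrophil and all 6 erythroid markers, and their part in the response was not tested. Irf7, Usp18, Oas3, Oasl2, Mx1, Eif2ak2, Parp14, Irgm1, Iigp1 and Trim30a, 10 in all, rose in wild-type LSKs and fell in knockout LSKs. The rise of Trim30a and the fall of Irf7 missed the threshold whichever library was left out. Calls of Usp18, Mx1, Eif2ak2 and Parp14 missed it in some of these fits, as given below. The comparison of the genotypes after 5-FU and the response of wild-type LSKs share the 3 libraries of wild-type LSKs after 5-FU, so the 30 members that rose in the one and were lower in the other are given as a description.

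The difference between the responses was tested as the interaction of genotype and 5-FU over the 12 libraries. It passed for 27 of the 42 members, all with a lower response in knockout LSKs, where 1.99% of the 18696 genes tested had a negative and 3.02% a positive interaction past the threshold. Their median was -0.70, against -0.02 over all genes. Mx1 at -2.25 (standard error 0.32) and Ifit3 at -2.23 (standard error 0.20) had the largest, followed by Ifit1 at -1.7 and Iigp1 at -1.56. Of the 38 members lower in knockout LSKs after 5-FU, 11 had an interaction that did not pass, among them Irf1, Rsad2 and Dtx3l, which were lower in the untreated comparison too.

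**Figure D4:**
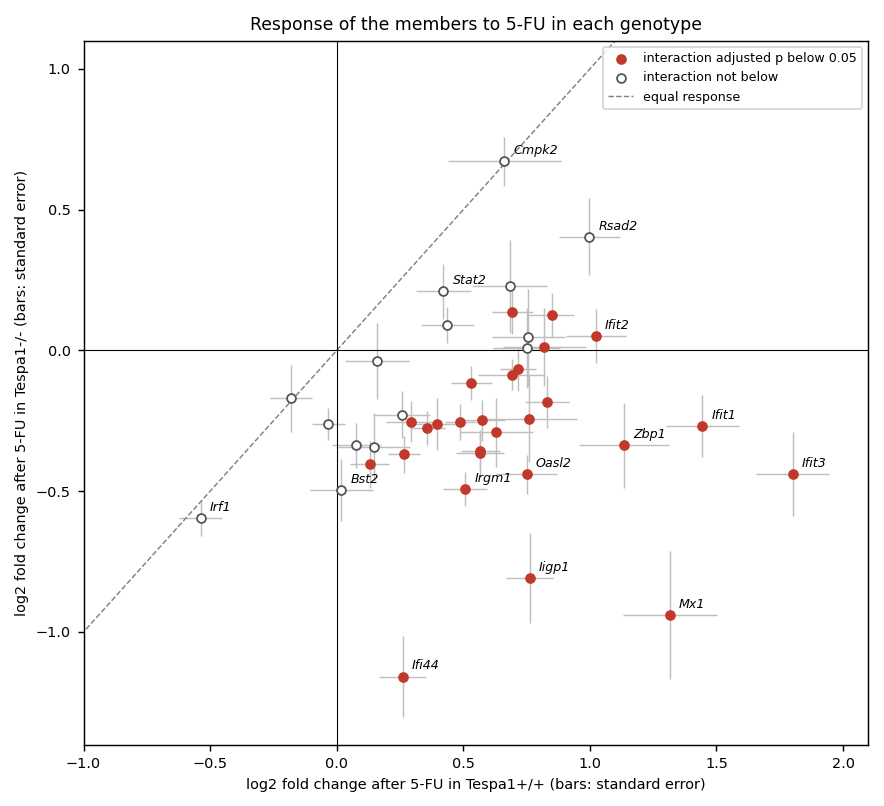
Log2 fold change after 5-FU in Tespa1+/+ (x axis) and in Tespa1-/- (y axis) for the 42 members, with standard errors from edgeR; red points have an interaction with an adjusted p below 0.05, and the dashed line marks an equal response. All red points lie below the dashed line, with Ifit3 and Mx1 the farthest from it, and Irf1 and Cmpk2 lie close to the line.

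Among the signalling and transcription factors, Irf7 encodes the factor that amplifies type I interferon production. It was at 69, 67.5 and 67.6 CPM in untreated wild-type LSKs and 60.7, 67.6 and 62.2 CPM in untreated knockout LSKs. After 5-FU it was at 113, 97.9 and 92.9 CPM in wild-type LSKs and 55.9, 53.9 and 51.9 CPM in knockout LSKs. Wild-type libraries after 5-FU lay above all others and knockout libraries after 5-FU below all others. The genotype difference was -0.10 (adjusted p = 0.532) in untreated LSKs and -0.91 (standard error 0.09, adjusted p = 2.20e-04) after 5-FU, and the rise in wild-type LSKs was 0.57 (standard error 0.09, adjusted p = 0.00474).

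Irf9 and Stat2, which encode subunits of ISGF3, moved less. Irf9 was at 116, 96.7 and 93 CPM in untreated wild-type LSKs, 96.5, 99.7 and 113 CPM in untreated knockout LSKs, 127, 132 and 116 CPM in wild-type LSKs after 5-FU and 83.1, 89.4 and 88.9 CPM in knockout LSKs after 5-FU. The untreated genotypes overlapped, and after 5-FU the knockout libraries lay below all others, with a genotype difference of -0.52 (adjusted p = 0.00157). Stat2 was at 46.3, 40.4 and 48.6 CPM and 35.1, 38.4 and 43.8 CPM in the untreated groups. After 5-FU Stat2 was at 55.2, 66 and 59.7 CPM in wild-type LSKs and 44.9, 47.6 and 44.4 CPM in knockout LSKs, a difference of -0.41 (adjusted p = 0.0224) that passed in 1 of the 6 fits that left out a library (adjusted p 0.0232 to 0.0836).

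Irf1 was the exception among the factors. It was at 168, 138 and 143 CPM in untreated wild-type LSKs and at 105, 99.4 and 105 CPM in untreated knockout LSKs. After 5-FU it was at 103, 106 and 99.8 CPM in wild-type LSKs and 71.5, 70.5 and 65 CPM in knockout LSKs. Irf1 fell after 5-FU in both genotypes, with log2 fold changes of -0.54 and -0.59, and was lower in knockout LSKs in both treatments, with -0.53 (adjusted p = 0.009) untreated and -0.58 (standard error 0.07, adjusted p = 7.98e-04) after 5-FU. Its interaction was -0.05 (adjusted p = 0.882). The summed level of the 12 handling and early-response genes went from 9480 to 9870 CPM in untreated wild-type LSKs to 6700 to 6800 in untreated knockout LSKs, 6150 to 6200 in wild-type LSKs after 5-FU and 4970 to 5150 in knockout LSKs after 5-FU. Between the genotypes 10 of the 12 were lower and 1, Hspa1b, was higher in untreated knockout LSKs, and 8 were lower and 0 higher after 5-FU.

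The sensors detect foreign nucleic acid in the cytosol. Ifih1 encodes MDA5, Ddx58 encodes RIG-I, Dhx58 their relative LGP2, and Zbp1 a sensor of Z-form nucleic acid that can start necroptosis. Zbp1 had the largest change of the 4, from 19.4, 20.7 and 28.8 CPM in untreated wild-type LSKs to 42.9, 49.7 and 58.2 CPM after 5-FU, a rise of 1.13 (standard error 0.18, adjusted p = 0.00468). In knockout LSKs it was at 19.97, 23.4 and 25.9 CPM untreated and 19.2, 15.5 and 20.6 CPM after 5-FU, so that the genotypes overlapped when untreated and differed after 5-FU with -1.45 (standard error 0.15, adjusted p = 3.34e-04). Ddx58 was at 94.2, 93.1 and 96.7 CPM and 72.1, 69.9 and 74.1 CPM in untreated wild-type LSKs and knockout LSKs, and at 122, 144 and 144 CPM and 67.6, 66.1 and 67.5 CPM after 5-FU. It was lower in knockout LSKs in both treatments, with -0.39 (adjusted p = 0.00925) and -1.03 (adjusted p = 4.99e-05), and the interaction passed as well at -0.63 (adjusted p = 0.00204).

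Dhx58 was at 68.9, 61.6 and 72.1 CPM in untreated wild-type LSKs and 48.5, 50.7 and 56.9 CPM in untreated knockout LSKs, which did not pass at -0.37 (adjusted p = 0.0608) although no library overlapped. After 5-FU Dhx58 was at 88.2, 81.1 and 96.9 CPM in wild-type LSKs and 47.6, 41.5 and 42.3 CPM in knockout LSKs, a difference of -1.02 (adjusted p = 1.80e-04). Ifih1 stood at 66, 60.6 and 61.2 CPM and 62.5, 54.5 and 52.8 CPM in the untreated genotypes, and at 105, 96.1 and 102 CPM and 62, 63.4 and 63 CPM in wild-type LSKs and knockout LSKs after 5-FU. In wild-type LSKs the gene rose by 0.69. The libraries of knockout LSKs after 5-FU lay within the range of untreated wild-type LSKs, and the genotype difference after 5-FU was -0.69 (adjusted p = 2.72e-04).

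The ISG15 system attaches a ubiquitin-like protein to newly made proteins. Isg15 encodes the modifier, Herc6 the mouse ligase that attaches it, and Usp18 the protease that removes it and also restrains the receptor. Isg15 was at 16, 14.9 and 12 CPM in untreated wild-type LSKs and 14.7, 16.7 and 14.8 CPM in untreated knockout LSKs, and at 27.7, 22.3 and 25.8 CPM and 14, 16.5 and 16.4 CPM after 5-FU. The wild-type libraries after 5-FU were above all others, and the other 3 groups overlapped. The difference after 5-FU was -0.69 (adjusted p = 0.0131). The adjusted p was 0.0203 to 0.0543 when a library was left out, and missed the threshold without replicate 1 of wild-type LSKs and without replicate 1 of knockout LSKs after 5-FU. Isg15 shares 63.8% of its transcript at 95% identity or more with AC151275.1, and Herc6 26.7% with Gm45193, so reads of these genes may be split.

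Herc6 was at 58.7, 59.4 and 61.7 CPM in untreated wild-type LSKs, 69.6, 65.1 and 57.1 CPM in untreated knockout LSKs, 96.3, 109.7 and 113 CPM in wild-type LSKs after 5-FU and 61.1, 53.6 and 55.6 CPM in knockout LSKs after 5-FU. It rose by 0.83 (adjusted p = 5.31e-04) in wild-type LSKs and did not pass in knockout LSKs at -0.18 (adjusted p = 0.21), with an interaction of -1.0 (standard error 0.13, adjusted p = 4.98e-04). Usp18 was at 46.1, 40.9 and 44.8 CPM and 44.2, 46.5 and 50.3 CPM untreated, and 64.3, 68.9 and 61.8 CPM and 37.5, 36.1 and 36.8 CPM after 5-FU, in wild-type LSKs and knockout LSKs in turn. It is one of the genes that moved in opposite directions, with 0.57 (adjusted p = 0.00674) in wild-type LSKs and -0.36 (adjusted p = 0.0138) in knockout LSKs. None of these 3 genes passed between the untreated genotypes, where their log2 fold changes lay from 0.10 to 0.11.

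The IFIT proteins bind viral RNA and are among the most strongly induced targets of type I interferon. Ifit3 (chromosome 19, 34583531 to 34588731, GRCm38) was at 15, 14 and 19.6 CPM in untreated wild-type LSKs and 14.5, 13.3 and 14.4 CPM in untreated knockout LSKs. After 5-FU it was at 57.6, 55.2 and 55.9 CPM in wild-type LSKs and 9.10, 11.2 and 11.1 CPM in knockout LSKs. The 3 wild-type libraries after 5-FU lay close together and above all others, and those of knockout LSKs after 5-FU lay below all others. This was the largest genotype difference of the 42 members after 5-FU, -2.43 (standard error 0.12, adjusted p = 4.11e-06), and the largest rise in wild-type LSKs, 1.8 (standard error 0.14, adjusted p = 1.03e-04). Ifit3 shares 97.4% of its transcript at 95% identity or more with its neighbour Ifit3b, so the split of reads between them is uncertain, and Ifit3b had -2.34 (adjusted p = 0.00122) after 5-FU.

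Ifit1 was at 19.6, 26.9 and 22.5 CPM in untreated wild-type LSKs, 23.2, 21.8 and 24.5 CPM in untreated knockout LSKs, 54.4, 68.1 and 64.7 CPM in wild-type LSKs after 5-FU and 20.2, 19.3 and 18.6 CPM in knockout LSKs after 5-FU. It rose by 1.44 (adjusted p = 4.10e-04) in wild-type LSKs and gave -1.69 (standard error 0.12, adjusted p = 2.66e-05) between the genotypes after 5-FU. Ifit2 was at 43.5, 38.1 and 49.2 CPM and 39.2, 44.1 and 40.8 CPM untreated, and at 97.2, 88.7 and 79.7 CPM and 38.9, 44.3 and 46.6 CPM after 5-FU. The libraries of knockout LSKs after 5-FU overlapped both untreated groups, while those of wild-type LSKs after 5-FU lay above all others, with a genotype difference of -1.04 (adjusted p = 2.63e-04).

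**Figure D5:**
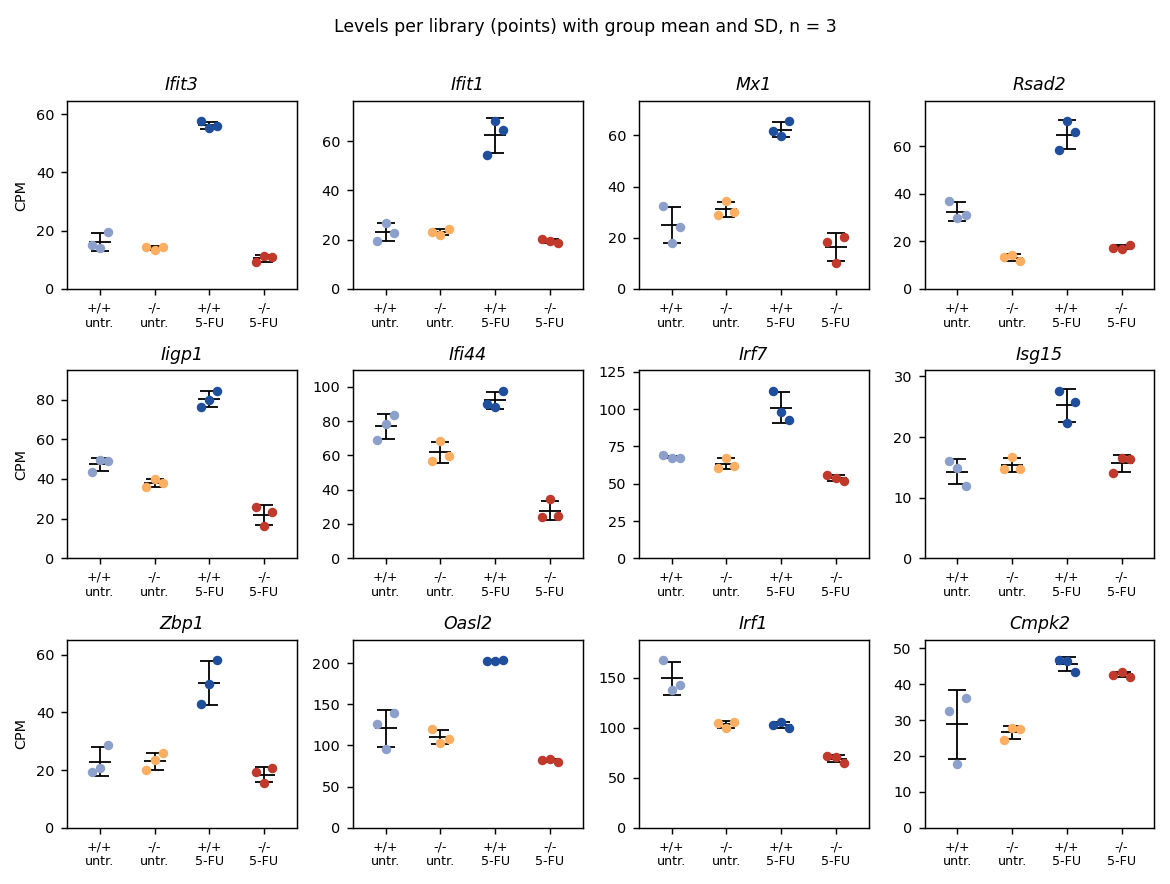
CPM in each of the 3 libraries of the 4 groups (points) with the group mean and SD for 12 members; each panel starts at 0 and has its own scale. In 10 of the 12 panels the dark blue points of Tespa1+/+ after 5-FU lie above all others. Irf1 is highest in untreated Tespa1+/+, and Cmpk2 has overlapping genotypes in both treatments.

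The OAS enzymes make short oligoadenylates that switch on RNase L, and the OAS-like proteins are their relatives. Oasl2 was at 127, 95.7 and 140.0 CPM in untreated wild-type LSKs and 119.5, 103 and 108 CPM in untreated knockout LSKs. After 5-FU it was at 203, 202 and 204 CPM in wild-type LSKs and 82.3, 83 and 79.96 CPM in knockout LSKs. The 3 libraries of each genotype after 5-FU lay close together, and the difference was -1.32 (standard error 0.06, adjusted p = 1.13e-06). Oas3 was at 109.9, 107 and 96.8 CPM and 90.6, 88.6 and 86.4 CPM untreated, and 158, 144 and 162 CPM and 66.4, 72.8 and 70.1 CPM after 5-FU, and its difference was -1.15 (adjusted p = 1.45e-05). Both genes rose in wild-type LSKs and fell in knockout LSKs after 5-FU.

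Oas2 was at 90.6, 89.8 and 91.7 CPM in untreated wild-type LSKs and 88.7, 91.3 and 94.4 CPM in untreated knockout LSKs, and at 159, 113 and 167 CPM and 85.9, 86.2 and 88.7 CPM after 5-FU. Replicate 2 of wild-type LSKs after 5-FU lay well under the other two, and the difference after 5-FU was -0.76 (adjusted p = 0.0048), with adjusted p 2.05e-04 to 0.0262 when each library was left out. Oasl1 was at 31.9, 24.4 and 34.3 CPM and 28.9, 21.4 and 35.7 CPM untreated, and 52.2, 50.3 and 42.8 CPM and 35, 33.8 and 32.8 CPM after 5-FU. Its difference after 5-FU was -0.52 (adjusted p = 0.0124), and the adjusted p was 0.0503 without replicate 3 of knockout LSKs after 5-FU. Oas1a stood apart from this family, with 52.1 ± 5.03, 59.9 ± 4.16, 62.3 ± 5.92 and 51.6 ± 3.32 CPM (SD, n = 3) in untreated wild-type LSKs, untreated knockout LSKs, wild-type LSKs after 5-FU and knockout LSKs after 5-FU, and it passed in no comparison. The longest Oas1a transcript is covered whole by Oas1g at 95% identity or more, so reads of these genes may be split.

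Among the other antiviral effectors, the GTPase gene Mx1 had the largest interaction of the 42 members. It was at 32.5, 18.1 and 24.4 CPM in untreated wild-type LSKs and 29, 34.3 and 30.02 CPM in untreated knockout LSKs. On day 9 after 5-FU, Mx1 was at 61.7, 59.6 and 65.6 CPM in wild-type LSKs and 18.5, 10.3 and 20.3 CPM in knockout LSKs. Replicate 2 of knockout LSKs after 5-FU was the lowest of the 12 libraries, and the untreated genotypes overlapped. The difference was -1.94 (standard error 0.22, adjusted p = 5.03e-04) after 5-FU, with adjusted p 1.53e-04 to 0.00319 when each library was left out. Mx2, annotated as a polymorphic pseudogene, was at 24.2, 20.5 and 22.5 CPM and 17.2, 18.2 and 15.4 CPM untreated, and 44.1, 36.8 and 32.6 CPM and 18.1, 21.1 and 13.7 CPM after 5-FU, with -1.11 (adjusted p = 0.00374). Mx2 shares 34% of its transcript with Mx1 at 95% identity or more.

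Rsad2 encodes viperin, which makes a nucleotide that stops viral polymerases, and Cmpk2 is the nucleotide kinase gene beside it, chromosome 12, 26442746 to 26456452 and chromosome 12, 26469204 to 26479837 in GRCm38. Rsad2 was at 36.9, 29.7 and 30.9 CPM in untreated wild-type LSKs and 13.3, 14.5 and 11.8 CPM in untreated knockout LSKs. With 5-FU, Rsad2 was at 58.2, 70.5 and 65.8 CPM in wild-type LSKs and 17.4, 16.9 and 18.5 CPM in knockout LSKs. No library of one genotype overlapped the other in either treatment, and the difference was the largest of the members in untreated LSKs, -1.3 (standard error 0.14, adjusted p = 0.00128). It was -1.89 (adjusted p = 1.01e-05) after 5-FU. Cmpk2 was at 28.8 ± 9.70, 26.6 ± 1.85, 45.5 ± 1.97 and 42.7 ± 0.725 CPM (SD, n = 3) in the groups in the same order. Cmpk2 rose after 5-FU in knockout LSKs by 0.67 (adjusted p = 9.31e-04). The ratio of its treated to its untreated mean was 1.58 in wild-type and 1.61 in knockout LSKs. Treated libraries lay above untreated ones in both genotypes, but the response of wild-type LSKs did not pass. Between the genotypes after 5-FU Cmpk2 gave -0.10 (standard error 0.09, adjusted p = 0.558).

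Samd9l, which restrains virus replication and cell growth, was at 64.1, 66.9 and 78 CPM in untreated wild-type LSKs, 54.8, 60.4 and 59.1 CPM in untreated knockout LSKs, 124, 124 and 129 CPM in wild-type LSKs after 5-FU and 66.4, 59.1 and 66.5 CPM in knockout LSKs after 5-FU. Its difference after 5-FU was -0.97 (adjusted p = 4.46e-05). Eif2ak2, the gene of the kinase PKR, was at 169 ± 8.65 CPM in wild-type LSKs and 106 ± 5.36 CPM in knockout LSKs after 5-FU (SD, n = 3), with -0.67 (adjusted p = 2.34e-04). Ifitm3 was at 151 ± 6.52 and 99 ± 9.42 CPM in the same groups, with -0.62 (adjusted p = 0.00105), and Ly6e, a relative of Ly6a, at 234 ± 12.8 and 197 ± 6.99 CPM, with -0.26 (adjusted p = 0.0213). For Ly6e the adjusted p was 0.0253 to 0.0784 when each library was left out, past the threshold in 1 of the 6 fits. Neither Ifitm3 nor Ly6e passed in the response of wild-type LSKs. Bst2, which encodes tetherin, gave -0.31 (adjusted p = 0.177) between the genotypes after 5-FU and fell after 5-FU in knockout LSKs, at -0.50 (adjusted p = 0.0133).

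Parp9 and Dtx3l encode partners in one ubiquitin ligase complex and are neighbours whose gene bodies overlap by 682 bases on opposite strands, and Parp14 encodes a related ADP-ribosyltransferase. Whether the counts used strand is not given in the sources used here, so a few reads may be shared by Parp9 and Dtx3l. Dtx3l was at 237, 233 and 240.5 CPM in untreated wild-type LSKs and 168, 157 and 165 CPM in untreated knockout LSKs, and at 211, 238 and 245 CPM and 134, 145 and 133 CPM after 5-FU. The genotypes did not overlap in either treatment, with -0.53 (adjusted p = 6.78e-04) untreated and -0.76 (standard error 0.07, adjusted p = 1.58e-04) after 5-FU. The response of Dtx3l in wild-type LSKs did not pass, at -0.03 (adjusted p = 0.83).

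Parp9 was at 78, 94.7 and 86.2 CPM and 72.5, 72 and 70.9 CPM in the untreated genotypes, and at 131, 115 and 105 CPM and 78.9, 72.5 and 79.6 CPM after 5-FU. Its untreated difference did not pass at -0.26 (adjusted p = 0.12), and that after 5-FU passed at -0.60 (adjusted p = 0.00243). Parp14 was at 187, 177 and 170.5 CPM and 163, 161 and 163 CPM untreated, and 258, 244 and 247 CPM and 146, 125 and 142 CPM after 5-FU, in wild-type LSKs and knockout LSKs in turn. Parp14 rose in wild-type LSKs and fell in knockout LSKs, with an interaction of -0.73 (standard error 0.09, adjusted p = 3.03e-04).

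The interferon-inducible GTPases act on vacuoles that hold pathogens. Iigp1 was at 43.5, 49.4 and 49.2 CPM in untreated wild-type LSKs and 36.2, 39.8 and 37.7 CPM in untreated knockout LSKs. The treated groups had Iigp1 at 76.4, 79.7 and 84.6 CPM in wild-type LSKs and 25.9, 16.4 and 23.2 CPM in knockout LSKs, and the latter 3 were the lowest of the 12 libraries. The untreated difference did not pass at -0.32 (adjusted p = 0.0913), and that after 5-FU was -1.88 (standard error 0.16, adjusted p = 8.88e-05). Irgm1, which is known to protect mouse hematopoietic stem cells from excess interferon signalling, was at 83.3, 95.3 and 97.3 CPM and 93.4, 94.9 and 88.3 CPM untreated, and at 129, 140.4 and 122 CPM and 66.2, 64.8 and 67.5 CPM after 5-FU. The untreated genotypes overlapped, at 0.01 (adjusted p = 0.982), and after 5-FU the difference was -0.99 (standard error 0.07, adjusted p = 4.14e-05).

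Gbp7 was at 121, 107 and 120.0 CPM in untreated wild-type LSKs, 120.2, 107 and 101 CPM in untreated knockout LSKs, 179.9, 198 and 193 CPM in wild-type LSKs after 5-FU and 111, 105 and 99.9 CPM in knockout LSKs after 5-FU. Gbp2 was at 28.2, 36.8 and 27.9 CPM and 34.2, 31 and 27.7 CPM untreated, and 49.9, 55.6 and 50.4 CPM and 37.3, 26.4 and 30.4 CPM after 5-FU. Both of these guanylate-binding protein genes stood higher in wild-type LSKs after 5-FU than in any other group, with differences of -0.86 (adjusted p = 5.36e-05) and -0.73 (adjusted p = 0.00713). Gbp3 and Igtp moved less, at 111 ± 5.28 and 45.4 ± 7.23 CPM in wild-type LSKs against 86.1 ± 9.44 and 29.9 ± 4.07 CPM in knockout LSKs after 5-FU (SD, n = 3). Their differences of -0.37 (adjusted p = 0.0238) and -0.61 (adjusted p = 0.0253) passed in 2 of the 6 fits that left out a library for each gene, with adjusted p 0.0164 to 0.0819 and 0.0237 to 0.0942. Over 7974 bases the gene bodies of Igtp and Irgm2 overlap on the same strand.

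The remaining members have mixed roles. Ifi44, which encodes a cytosolic protein with antiviral and growth-restraining activity, had the largest fall of the 42 members in knockout LSKs. It was at 68.9, 78.5 and 83.4 CPM in untreated wild-type LSKs and 56.8, 68.3 and 59.9 CPM in untreated knockout LSKs, and at 90.1, 88.1 and 97.8 CPM and 24.1, 34.5 and 24.9 CPM after 5-FU. Every wild-type library after 5-FU lay above every untreated one, but the response did not pass at 0.26 (adjusted p = 0.139), while in knockout LSKs it was -1.16 (standard error 0.14, adjusted p = 7.47e-04). The genotype difference after 5-FU was -1.73 (standard error 0.14, adjusted p = 6.68e-05).

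Xaf1, which encodes a protein that promotes apoptosis, was at 32, 27.4 and 29 CPM and 28.6, 29.4 and 26.1 CPM untreated, and at 46.2, 37.3 and 53.2 CPM and 20.6, 22.4 and 26.5 CPM after 5-FU, with -0.98 (adjusted p = 0.0032). Trim30a was at 134, 133 and 123 CPM in untreated wild-type LSKs, 117, 126 and 110.2 CPM in untreated knockout LSKs, 159, 157 and 151 CPM in wild-type LSKs after 5-FU and 90.01, 90.6 and 95 CPM in knockout LSKs after 5-FU, with -0.76 (adjusted p = 6.61e-05). Rtp4 was at 17.3, 16.5 and 24.6 CPM and 22.7, 19.7 and 20.2 CPM untreated, and 33.1, 37.8 and 27.8 CPM and 15.4, 21.5 and 16.5 CPM after 5-FU, with -0.89 (adjusted p = 0.00891). In each of these 3 genes the knockout libraries lay below those of wild-type LSKs after 5-FU. Ifi35 was at 36.4 ± 3.87 and 28.3 ± 5.12 CPM (SD, n = 3) in these groups, overlapped, and gave -0.37 (adjusted p = 0.154).

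Some calls were lost in fits that left out a library. In the response of wild-type LSKs to 5-FU, Stat2, Dhx58 and Trim30a passed with all 6 libraries and in none of the 6 fits that left out one, with adjusted p 0.0699 to 0.169, 0.0514 to 0.141 and 0.0646 to 0.124. Rtp4 passed in 1 of 6 (0.017 to 0.149), Parp9 and Xaf1 in 2 (0.0408 to 0.126 and 0.0207 to 0.109), Oas2, Oasl1 and Eif2ak2 in 3 (9.63e-04 to 0.0607, 0.028 to 0.0939 and 0.0225 to 0.0645), and Isg15 and Mx2 in 4 (0.0279 to 0.0685 and 0.0195 to 0.0545). The other 19 members that rose there passed in all 6. In the response of knockout LSKs, Irf7 passed in none of 6 (0.057 to 0.165) and Irf9 in 1 of 6 (0.0481 to 0.127). Ifitm3 and Parp14 passed there in 3 (0.00963 to 0.069 and 0.0241 to 0.0779), Mx1 in 4 (0.0101 to 0.0764), Usp18, Eif2ak2, Bst2 and Dtx3l in 5, and the other 9 members called in all 6. Among the interactions, Isg15 passed in 2 of 12 (0.0423 to 0.124), Rtp4 in 3 (0.0127 to 0.106), Irf9 in 5 (0.00768 to 0.0833) and Gbp3 in 11 (0.00613 to 0.0564), and the other 23 in all 12. In untreated LSKs, Irf1 had an adjusted p of 0.0585 without replicate 2 of knockout LSKs, and Ddx58 up to 0.0616 without replicate 1 or 2 of knockout LSKs.

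Genes of the interferon pathway outside the 42 were read from a list of 82, also chosen with earlier results of these data known. After 5-FU, 75 of them were tested, of which 26 were lower and 1 was higher in knockout LSKs, with a median of -0.27. The part made of other interferon-induced genes gave 21 lower and 0 higher of 43. Phf11d at -2.06 (adjusted p = 6.88e-04), Gbp6 at -1.82 (adjusted p = 0.00302), Ifi204 at -1.55 (adjusted p = 1.57e-04) and Tgtp1 at -1.35 (adjusted p = 5.84e-06) were among the largest falls. Among 9 receptor and kinase genes 1 passed, Ifngr1, which encodes a chain of the interferon-gamma receptor and was higher in knockout LSKs at 0.27 (adjusted p = 0.036). Ifnar1 was at 66.1, 63.8 and 57.7 CPM in wild-type LSKs and 72.1, 51.9 and 61.8 CPM in knockout LSKs after 5-FU, which overlapped, at -0.02 (adjusted p = 0.947), and Ifnar2 gave -0.21 (adjusted p = 0.156). Jak1 at -0.11 (adjusted p = 0.19) and the other kinase genes did not pass.

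Tlr7, an RNA sensor of endosomes, was at 20.9, 17.6 and 16.9 CPM in wild-type LSKs and 2.56, 6.66 and 2.84 CPM in knockout LSKs after 5-FU, with -2.2 (adjusted p = 0.00309). Ly6a, the gene of the sorted antigen Sca-1, was at 45.2, 21.2 and 41.7 CPM and 15.1, 10.6 and 20.2 CPM in these groups, with -1.24 (adjusted p = 0.0265), and the genotypes did not overlap. Of 5 genes of negative feedback 1 passed after 5-FU, Socs3, which was lower in knockout LSKs at -0.57 (adjusted p = 5.50e-04) and had already been lower in untreated LSKs at -0.99 (adjusted p = 8.04e-05).

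Type I interferon transcripts were at the edge of detection. The genes of the list (Ifnb1, Ifna1, Ifna2, Ifna4, Ifnk and Ifne) had at most 14 counts in any library. Ifna1 had 14, 2 and 14 counts in wild-type LSKs and 2, 0 and 1 counts in knockout LSKs after 5-FU. In the same groups Ifna2 had 12, 3 and 12 counts and 11, 0 and 3 counts. Ifna4 had 4, 9 and 0 counts and 8, 0 and 0 counts there, and both of these genes overlapped between the genotypes. Ifng, the gene of interferon-gamma, had 0 counts in all 6 untreated libraries, 1, 11 and 6 counts in wild-type LSKs after 5-FU and 27, 41 and 33 counts in knockout LSKs after 5-FU. The Ifng difference between the genotypes after 5-FU did not pass (adjusted p = 0.08), while the rise in knockout LSKs over their untreated group passed (adjusted p = 0.00273). Interferon made by cells outside the sort was not measured.

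Markers of other cells moved with the genotype after 5-FU as well. Of 12 neutrophil markers 11 were higher and 0 lower in knockout LSKs after 5-FU, with S100a9 at 1.64, 0.925 and 1.32 CPM in wild-type LSKs and 328, 311 and 309 CPM in knockout LSKs. All 6 erythroid markers were higher, and the list summed to 259 to 275 CPM in knockout LSKs against 33.1 to 47.5 CPM in wild-type LSKs. Monocyte and macrophage markers went both ways, with 1 of 10 higher and 2 lower. They summed to 524 to 570 CPM in knockout LSKs against 437 to 486 CPM in wild-type LSKs. Of the B cell markers 2 of 6 were higher and 0 lower, and of the megakaryocyte markers 1 of 5 was higher and 0 lower. The list of 10 LSK markers summed to 1330 to 1370 CPM in wild-type LSKs and 800.0 to 868 CPM in knockout LSKs after 5-FU, with 7 of 10 lower, 0 higher and a median log2 fold change of -0.81. The 42 members had a median of -0.84 and ran from -2.43 to -0.10. In untreated LSKs the median was -0.29 for the LSK list and -0.12 for the members. A relation between the LSK list and the members was not tested. Plasmacytoid dendritic cell markers, a list of 8 for cells known for type I interferon production, summed to 29.6 to 30.7 CPM in wild-type LSKs and 27.9 to 32.8 CPM in knockout LSKs after 5-FU. Of the 6 tested, 2 passed as higher and 0 as lower in knockout LSKs. Siglech was at 0, 0.154 and 0 CPM in wild-type and 3.33, 1.70 and 2.48 CPM in knockout LSKs, and Spib at 4.76, 4.05 and 3.92 CPM and 8.77, 7.40 and 6.32 CPM. The list was mixed, with 3 of the 6 fold changes positive and 3 negative, down to -0.52. Lair1, the most abundant marker of this list in both groups, was lower in knockout LSKs without overlap of libraries, but did not pass. T and NK cell markers, cells known to make interferon-gamma, summed to 31.7 to 38.4 CPM in wild-type and 68.9 to 76.1 CPM in knockout LSKs after 5-FU, with 3 of the 7 tested higher and 0 lower. Among them Gzma had 0, 0 and 0 counts in wild-type and 298, 243 and 267 counts in knockout LSKs. In untreated LSKs, where 4 members were lower, the LSK list summed to 1600 to 1670 CPM in wild-type LSKs and 1330 to 1380 CPM in knockout LSKs (3 of 10 lower). B cell markers summed to 47.7 to 59.4 CPM and 31.9 to 37.1 CPM in these untreated groups (2 of 6 lower). There monocyte and macrophage markers summed to 444 to 498 CPM and 603 to 626 CPM (2 of 9 tested higher), erythroid markers to 17.3 to 24.4 CPM and 38.4 to 46 CPM (1 of 6 higher), and megakaryocyte markers to 32.4 to 37.2 CPM and 61.1 to 63.5 CPM (1 of 4 tested higher). The lineage antibodies of the sort (against CD3e, CD11b, Gr-1, B220 and Ter-119) would remove mature T, B, myeloid and erythroid cells, and none of them is directed at megakaryocytes. Cd3e, Itgam, Ly6g and Ly6c1, which encode targets of those antibodies, summed to 29.8 to 37.9 CPM in wild-type LSKs and 74.8 to 86.6 CPM in knockout LSKs after 5-FU, and 3 of the 4 were higher. All 3 libraries of knockout LSKs after 5-FU hold the marker RNA, so cell makeup and genotype cannot be told apart in this group, and the part of these cells in the lower members was not tested.

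Spread between replicates was close to that of other genes at these levels in 3 groups and lower in knockout LSKs after 5-FU. The median coefficient of variation of the 42 was 9.64% in untreated wild-type LSKs, 6.63% in untreated knockout LSKs, 7.33% in wild-type LSKs after 5-FU and 5.89% in knockout LSKs after 5-FU, against 8.97%, 6.36%, 7.52% and 8.73% for genes within the same range of levels. The largest were 33.7% for Cmpk2 in untreated wild-type LSKs and 32.7% for Mx1 in knockout LSKs after 5-FU. No library was the highest throughout. In wild-type LSKs after 5-FU the highest value fell to replicate 1 in 14 members, to replicate 2 in 12 and to replicate 3 in 16. The median log2 fold change after 5-FU was -0.71 for the 18 members with an ISRE core, from -2.43 for Ifit3 to -0.27 for Oas1a, -0.91 for the 13 whose window held none, from -1.73 to -0.10, and -0.89 for the 11 without a window. These medians were not tested against each other.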

How the data were processed

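RNA from sorted LSKs was sequenced as stranded poly-A paired-end libraries, 3 per group. The deposited table holds 1 column of raw counts and 1 of FPKM per library, and the authors' processing notes name CASAVA 1.8, HISAT2, StringTie, edgeR and build GRCm38. How reads were assigned to genes, and whether strand was used, is not given in the sources used here. Counts deposited by the authors were tested, and the deposited FPKM served to rank levels between genes. The 42 members, their role groups and the other gene lists were chosen with earlier results of these data known.

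Genes with too few counts were removed with filterByExpr (minimum count 10), libraries were scaled by TMM, and each comparison was fitted to its own 2 groups with the quasi-likelihood test of edgeR 4.0.16 in R 4.3.3. The interaction was fitted to all 12 libraries. P-values were adjusted by the Benjamini-Hochberg method over all genes tested, and an adjusted p below 0.05 was called. These p-values weigh each difference against the spread between these libraries. The standard error is the log2 fold change divided by the square root of F. CPM are counts over the library total times the TMM factor. DESeq2 1.42.0, other scalings, other call rules and fits without each library were alternatives. The edgeR and DESeq2 scripts were tested on simulated data.

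Values in every library are given for members that passed a genotype comparison or the interaction and had a mean of at least 1 FPKM, up to 4 per role group by size of change (33 members), and group means for the other 9. Correlations between deviations of libraries with the same replicate number ran from -0.0758 to 0.0258, so the numbers were not used as pairs. Look-alike transcripts were found with blastn 2.17.0 and GENCODE annotation, and figures drawn with matplotlib 3.10.9 in Python 3.11. One gene of the pathway list is not reported here.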

Additional observations from a re-analysis of the deposited data

Results flagged for a closer look

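The response to 5-FU differed between the genotypes, by the interaction term of edgeR's quasi-likelihood test over the 12 libraries, in 27 of the 42 members. The interaction is a difference of log2 fold changes, and a negative value means a lower response in Tespa1-/- LSKs. Among the signalling and transcription factors it was -0.81 for Irf7 and -0.53 for Irf9. In the sensors the interaction was -0.54 for Ifih1, -0.63 for Ddx58, -0.64 for Dhx58 and -1.46 for Zbp1. It was -0.80 for Isg15, -0.92 for Usp18 and -1.0 for Herc6 in the ISG15 system. For the IFIT genes it was -1.70 for Ifit1, -0.96 for Ifit2 and -2.23 for Ifit3. Among the OAS family it was -0.77 for Oas2, -0.91 for Oas3 and -1.18 for Oasl2. In the other antiviral effectors the interaction was -2.25 for Mx1, -0.62 for Eif2ak2 and -0.71 for Samd9l. It was -0.73 for Parp14 in the PARP genes. For the interferon-inducible GTPases it was -0.52 for Gbp3, -0.77 for Gbp7, -0.99 for Irgm1 and -1.56 for Iigp1. Among the remaining members it was -1.41 for Ifi44, -0.91 for Xaf1, -0.62 for Trim30a and -0.99 for Rtp4. Of these members, Irf9, Isg15, Rtp4 and Gbp3 missed the threshold in at least 1 of the fits that left out a library. The 3 libraries of Tespa1-/- after 5-FU, which enter each of these values, also hold the neutrophil and erythroid marker RNA given above, and the part of that RNA in the interaction was not tested.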

How the results depend on the processing

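With a fold change above 1.5 required as well, 1 member was lower in untreated Tespa1-/- LSKs, 19 rose and 0 fell in Tespa1+/+ after 5-FU, and 4 fell in Tespa1-/- after 5-FU. By unadjusted p (under 0.05) and the same fold limit, the lower members numbered 1 in untreated Tespa1-/-, 0 in the response of Tespa1+/+ and 4 in that of Tespa1-/-. DESeq2 called 7 members lower in untreated Tespa1-/-. One fit of all 12 libraries called 2 members higher after 5-FU in Tespa1-/-. When each library was left out, 2 to 5 members were lower in untreated Tespa1-/- (2 without replicate 2 of Tespa1-/-) and 34 to 36 were lower in Tespa1-/- after 5-FU. In the same fits 19 to 26 members rose in Tespa1+/+ (19 without its treated replicate 1), 11 to 16 fell in Tespa1-/-, and 24 to 27 had a lower response in Tespa1-/-. With a replicate block the members lower after 5-FU numbered 37 (Gbp3 missed the threshold), those that rose in Tespa1+/+ 25, those that fell in Tespa1-/- 16 and those with a lower response 24, and 4 were lower in untreated Tespa1-/-. No fold change of a member past the threshold changed sign in any alternative, and the other counts stayed within 1.5 times. The cause of these shifts was not tested, apart from the fold limit, which removes the smaller changes.

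Depth did not limit the members, whose lowest count was 246. The interferon genes of type I had at most 14 counts, and whether greater depth would raise these counts was not tested. Ly6e, Stat2, Gbp3 and Igtp lost their call after 5-FU in most fits that left out a library.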
